A study of Mus musculus with 13 samples.

Results

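Livers of mice with the N750F mutant of Rb1, taken after diethylnitrosamine (DEN), were set against livers of untreated wild type mice. The comparison held 7 of the 13 arrays, chosen by their descriptions: 5 labelled as the RB-N750F mutant with DEN and 2 labelled as untreated wild type. The N750F mice received a single intraperitoneal dose of 20 mg/kg DEN at 14 days of age, and the livers were collected 24 h later. The untreated mice were also aged to 14 days, and the design text describes their treatment as saline. Wild type means mice with loxP sites around exon 19 of Rb1 but without Cre, so their Rb1 is undeleted. Where mice of the study carried Cre, it stood under the albumin promoter and so acted in hepatocytes. The description of the N750F arrays gives the mutant alone, without its second allele and without saying whether Cre was present. Genotype and DEN therefore change together between the groups and cannot be told apart, and Cre may change with them. Total RNA of whole liver was measured, so fewer cells of a type and less RNA per cell cannot be told apart. The labels do not tell whether litters were separate, so the p-values measure only how far these arrays spread.

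The retinoblastoma protein binds E2F transcription factors and holds genes of DNA replication in check, and the N750F substitution lies in the pocket region through which it contacts proteins with an LXCXE motif. DEN causes liver tumours in rodents once cytochromes P450 of hepatocytes have turned it into an alkylating agent. Alkylated DNA activates p53, whose targets include genes of cell cycle arrest, apoptosis and repair. The liver of a young mouse is still growing, and some of its cells are dividing before any treatment.

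After DEN, N750F livers had higher levels of a number of p53 targets and genes of DNA replication and mitosis than untreated wild type livers, and lower levels of the metallothioneins Mt1 and Mt2, of Igfbp4, Socs2 and Cish of the growth hormone and IGF axis, and of some respiratory chain subunits. Of 14953 genes tested, 578 were higher (3.87%) and 350 lower (2.34%) at an adjusted p under 0.05, from limma with Benjamini-Hochberg adjustment, and 3314 passed an unadjusted p under 0.05. A level is the log2 of the quantile-normalized intensity plus 16, so that 4 stands for an intensity of 0. A change is the difference between the group levels in a model with a term for array run, given ± SE, and it can exceed the plain difference of the means. The median change over all genes tested was -0.06. Of the genes called, 444 were higher by at least 1 and 26 by at least 2, while 245 were lower by at least 1 and 22 by at least 2. In 736 of the 928 called genes all 5 N750F arrays lay beyond both untreated arrays, 460 above and 276 below. Over all genes tested, 10.9% had all 5 N750F arrays above both untreated arrays and 14.5% had them all below.

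N750F arrays 1 to 3 and both untreated arrays belonged to array run 1, as read from the array names in the labels, and N750F arrays 4 and 5 to run 2, which held no untreated array. Median deposited intensities were 78.2 to 81.6 in the N750F arrays of run 1, 48.2 and 73.3 in those of run 2, and 79.4 and 82.06 in the untreated arrays. Y-linked genes averaged 9.29 in N750F array 1 and 8.91 in untreated array 1, and 4.44 to 4.57 in the other 5 arrays, so each group held 1 male and otherwise females. Correlations across all probe sets were 0.906 to 0.981 between N750F arrays, 0.967 between the untreated arrays and 0.897 to 0.953 between the groups. Run 1 alone, with 3 N750F and 2 untreated arrays, gave 159 genes higher and 127 lower. The number of calls rested heavily on single arrays: 10 genes were higher and 3 lower without untreated array 1, 151 and 103 without untreated array 2, and 95 and 65 without N750F array 3. Without N750F array 2 the counts were 263 and 180, and without N750F array 1 they were 464 and 225. With neither male array, 5 genes were higher and 1 lower. In none of these fits did a gene called with all arrays have a change of the opposite sign.

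The arrays were those of liver. Of 18 hepatocyte markers tested, among them albumin, transferrin and transthyretin, 0 were called by limma. Over all genes tested 928 of 14953 (6.21%) were called in either direction. At an unadjusted p under 0.05, 3 of the 18 markers passed, against 3314 of the 14953 genes. The mean level of the markers was 11.4 to 11.7 in the 5 N750F arrays and 11.6 to 11.7 in the 2 untreated arrays. Hnf4a, a transcription factor of hepatocytes, had the smallest p of the list, with a change of -0.67 ± 0.21 and an adjusted p of 0.0792.

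The targeted gene Rb1 (probe set 10421526, chromosome 14) had levels of 8.23, 7.82, 8.43, 8.06 and 7.93 in N750F livers, against 7.27 and 7.15 in untreated livers. All 5 N750F arrays lay above both untreated arrays. The change of 0.95 ± 0.31 did not pass the test (adjusted p = 0.0869). A point mutation leaves the transcript in place, and the second allele and the presence of Cre are not given, so this level does not check the labels. Wild type livers after DEN, on 2 other arrays of the series, had Rb1 levels of 8.04 and 8.01. N750F livers differed from these by 0.05 ± 0.30, and these from untreated livers by 0.90 ± 0.37. Neither difference passed the test. In the list of RB pocket proteins, E2F factors and their partners, 2 of 25 tested members rose (8%) and 0 fell. Over all genes tested 3.87% were higher. The median change of the list was 0.05 (-0.01 once each array was levelled over the genomic span of its genes). Tfdp1, the dimerization partner of E2F factors, had levels of 9.29, 8.86, 9.17, 9.11 and 9.25 in N750F livers and 8.04 and 7.94 in untreated livers. Its change was 1.05 ± 0.22 (adjusted p = 0.0183), while the group means of another of its probe sets differed by 0.23. Rbl1, which encodes the pocket protein p107 and is itself an E2F target, rose by 1.33 ± 0.30 (adjusted p = 0.0257). E2f5 stood at 0.86 ± 0.26 and E2f4 at -0.66 ± 0.36, and neither passed the test. E2f1 and E2f2 were too dim to be tested.

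Genes that E2F factors are known to activate serve entry into S phase and DNA replication. Of 36 tested, 9 rose and 0 fell, 25% against 3.87% of all genes tested higher, and their median change was 0.59. The mean level of the list was 7.67 to 8.14 in the 5 N750F arrays, against 7.25 and 7.10 in the untreated arrays, so the groups did not overlap. To show what the promoters of such genes look like, windows from 250 bases before to 50 after the start of transcription were read from RefSeq's table for GRCm38.p6, which matched 11780 of the 14953 genes. They were searched on both strands for the E2F words TTTGGCGC, TTTCGCGC, TTTCCCGC and TTTGCCGC, and for TTTGAA, the core of the cell cycle homology region (CHR) of mitotic genes. At least 1 E2F word stood in a window of 12 of the 29 tested members of this list that had one (41.4%). The share was 2.6% of the 27025 genes of the table and 3.81% of the genes tested with a window. Among the members that rose, 8 had a window and 3 of these held an E2F word (37.5%), while those of Rrm1 and Rrm2 held 0. Mcm7 and Hells, which rose and hold the word, are printed 5′ to 3′ with each E2F word in capitals. Mcm7 (chr5:138171834-138172133, minus strand) holds 2 words, and Hells (chr19:38930740-38931039, plus strand) holds 1. Mcm7 has 2 windows, of which 1 is printed. A word in a window is a description and not a measured binding site.
Mcm7: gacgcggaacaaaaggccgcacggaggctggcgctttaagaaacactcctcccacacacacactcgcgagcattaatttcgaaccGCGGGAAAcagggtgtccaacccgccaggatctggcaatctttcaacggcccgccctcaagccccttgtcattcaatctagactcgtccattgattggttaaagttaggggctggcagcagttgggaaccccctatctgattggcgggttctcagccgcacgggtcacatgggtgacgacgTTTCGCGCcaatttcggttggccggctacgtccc
Hells: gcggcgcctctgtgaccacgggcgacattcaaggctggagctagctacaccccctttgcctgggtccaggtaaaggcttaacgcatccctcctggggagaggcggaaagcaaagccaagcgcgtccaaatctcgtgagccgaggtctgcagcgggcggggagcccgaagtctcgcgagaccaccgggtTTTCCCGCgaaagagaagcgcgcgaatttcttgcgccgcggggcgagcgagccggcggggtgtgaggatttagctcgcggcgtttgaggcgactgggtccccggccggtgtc

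Among the 9 members that rose were both subunits of ribonucleotide reductase, the enzyme that makes deoxyribonucleotides. Rrm2, its small subunit, had levels of 8.86, 9.19, 9.62, 7.99 and 8.20 in N750F livers, against 6.89 and 6.85 in untreated livers. All 5 N750F arrays lay above both untreated arrays, and those of run 2 were the lowest of the 5. The change was 2.26 ± 0.55 (adjusted p = 0.0319). Rrm1, the large subunit, rose by 1.72 ± 0.35 (adjusted p = 0.0183). Mcm7, a subunit of the replicative helicase, had levels of 7.54, 8.18, 8.41, 7.69 and 7.97 in N750F livers and 5.92 and 6.07 in untreated livers. The lowest N750F array was thus more than 1 log2 unit above the higher untreated one, and the change was 1.93 ± 0.40 (adjusted p = 0.0183). Hells, a chromatin remodeller, rose by 1.79 ± 0.42, Prim1, the catalytic subunit of primase, by 1.59 ± 0.37, and Fen1, the flap endonuclease of Okazaki fragments, by 1.35 ± 0.29. Pole2, a subunit of DNA polymerase epsilon, Ccne2, cyclin E2, and Dck, deoxycytidine kinase, rose by 1.21 to 1.25. The other 27 members did not pass. Among them Ccna2, cyclin A2, stood at 1.69 ± 0.59 (adjusted p = 0.106), Mcm4 at 0.90 ± 0.38 and Pcna at -0.08 ± 0.23. Run 1 alone gave 2 members higher, with a median of 0.57. The count was 0 without N750F array 3 or either untreated array, and 5 without N750F array 2. The median stayed between 0.51 and 0.74 in the fits that left out 1 array.

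Genes of the G2 phase and mitosis had the largest median change of the 26 pathway lists, 0.95, but only 9 of 52 tested members passed the test. All 9 rose (17.3%, against 3.87% of all genes tested) and 0 fell. The mean level of the list was 7.98, 8.21, 8.15, 8.30 and 8.25 in N750F livers, against 7.44 and 7.21 in untreated livers. The 5 N750F arrays lay close together and above both untreated arrays. The CHR word stood in the windows of 30 of the 44 members that had one (68.2%), against 20.2% of the table's genes and 16.1% of the genes tested with a window. The windows of 3 members that rose show where the words stand, with the CHR word and any E2F word in capitals. Prc1 (chr7:80294201-80294500, plus strand) and Ckap2 (chr8:22185770-22186069, minus strand) hold the CHR word once, and Ncapg (chr5:45669675-45669974, plus strand) holds it once, followed by an E2F word read on the other strand. Prc1 has 2 windows, of which 1 is printed.
Prc1: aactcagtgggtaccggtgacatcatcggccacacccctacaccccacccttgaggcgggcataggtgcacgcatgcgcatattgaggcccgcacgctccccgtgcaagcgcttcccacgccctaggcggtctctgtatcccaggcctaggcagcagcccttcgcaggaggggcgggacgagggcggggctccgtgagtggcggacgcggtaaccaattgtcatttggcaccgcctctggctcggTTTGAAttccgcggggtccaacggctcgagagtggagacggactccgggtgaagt
Ckap2: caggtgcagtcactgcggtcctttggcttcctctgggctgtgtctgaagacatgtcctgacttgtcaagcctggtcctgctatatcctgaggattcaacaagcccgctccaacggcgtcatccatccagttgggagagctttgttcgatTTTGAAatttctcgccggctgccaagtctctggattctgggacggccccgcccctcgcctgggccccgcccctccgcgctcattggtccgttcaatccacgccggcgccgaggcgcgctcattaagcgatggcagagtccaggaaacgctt
Ncapg: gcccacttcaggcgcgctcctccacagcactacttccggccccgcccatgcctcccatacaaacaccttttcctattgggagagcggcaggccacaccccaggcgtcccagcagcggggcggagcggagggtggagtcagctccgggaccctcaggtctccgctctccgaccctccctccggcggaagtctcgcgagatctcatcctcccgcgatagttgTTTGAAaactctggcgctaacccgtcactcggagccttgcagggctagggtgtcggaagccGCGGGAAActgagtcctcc

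Ckap2, a microtubule-associated protein of the spindle, had levels of 7.41, 8.16, 8.38, 8.43 and 8.05 in N750F livers and 6.43 and 6.19 in untreated livers. N750F array 1 was the lowest of its group and still above both untreated arrays, and the change was 1.84 ± 0.35 (adjusted p = 0.015). Pbk, a mitotic kinase, rose by 1.91 ± 0.46 (adjusted p = 0.0307), and Cep55, a protein of the midbody in abscission, by 1.49 ± 0.36 (adjusted p = 0.0305). Aurkb, the kinase of the chromosomal passenger complex, had levels of 6.50, 7.28, 7.30, 7.05 and 7.24 in N750F livers, against 6.15 and 5.78 in untreated livers. Its change was 1.1 ± 0.27 (adjusted p = 0.0347). The condensin genes Smc2, Smc4 and Ncapg rose by 1.33 ± 0.34, 1.18 ± 0.32 and 1.38 ± 0.38. Prc1, which bundles microtubules of the central spindle, rose by 1.44 ± 0.39, and Kif20b, a kinesin of cytokinesis, by 1.42 ± 0.36. Some well-known markers of cycling cells did not pass. Mki67 had levels of 9.66 to 10.1 in the 5 N750F arrays, against 8.76 and 8.98 in untreated livers, and a change of 1.04 ± 0.42 (adjusted p = 0.161). Top2a stood at 1.33 ± 0.51 (adjusted p = 0.141) and Cdk1 at 0.97 ± 0.32 (adjusted p = 0.091). Plk1 was at -0.22 ± 0.34 and Cks2 at -0.56 ± 0.24. Run 1 alone gave 1 member higher, with a median of 0.83. The count was 0 without either untreated array, 1 without N750F array 2 or N750F array 3, 4 without N750F array 1 and 5 without N750F array 5. It was 4 with an offset of 1, 6 after median scaling and 2 without further normalization. The count was 3 with the mean of Y-linked genes as a covariate, 5 when each array was levelled over gene span and 1 without the array run term. It was 24 without the 2 knockout arrays of the series, which enter only through the shared spread, and 29 with array weights, and the median over the fits that left out 1 array was 0.86 to 1.07.

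**Figure D1:**
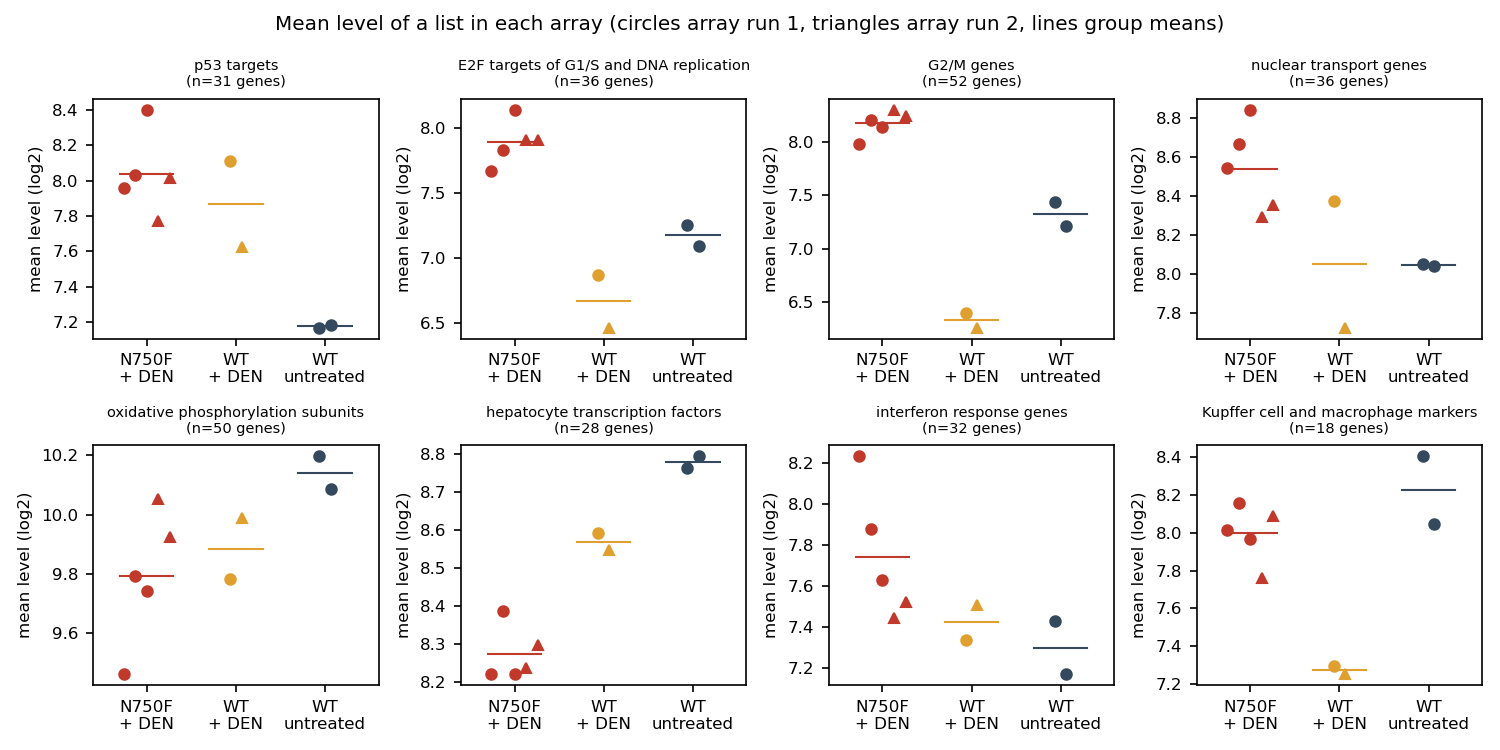
Mean log2 level of 8 gene lists in each array, for N750F after DEN, wild type after DEN and untreated wild type, with circles for array run 1, triangles for run 2 and lines for group means. The 5 N750F arrays lie above both untreated arrays for the p53, E2F and G2/M lists and below both for respiratory chain subunits and hepatocyte transcription factors.

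Targets of p53 gave the highest share of calls. Of 31 tested, 12 rose (38.7%, against 3.87% of all genes tested) and 0 fell, and the median change was 0.75. Ddias, a suppressor of apoptosis after DNA damage, had levels of 9.53, 8.94, 9.94, 8.26 and 8.68 in N750F livers, against 6.03 and 5.90 in untreated livers. Every N750F array was well above both untreated arrays. Its change of 3.50 ± 0.32 (adjusted p = 0.000604) was the largest in the list. Ccng1, cyclin G1, had 12.49, 12.36, 12.57, 12.55 and 12.52 in N750F livers and 10.59 and 10.69 in untreated livers, with hardly any spread in either group, and rose by 1.88 ± 0.20 (adjusted p = 0.000629). Mdm2, the ubiquitin ligase that degrades p53, had 10.2, 9.69, 10.7, 8.88 and 9.37 in N750F livers and 8.77 and 8.62 in untreated livers. N750F array 4 lay only just above untreated array 1, and the change was 1.50 ± 0.27 (adjusted p = 0.0115).

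Further p53 targets that rose carry out different parts of the response. Trp53inp1, a p53-induced protein of apoptosis and autophagy, rose by 2.35 ± 0.32 (adjusted p = 0.00381), and Polk, a translesion DNA polymerase, by 2.32 ± 0.31 (adjusted p = 0.00381). Ephx1, the microsomal epoxide hydrolase, rose by 2.12 ± 0.25 (adjusted p = 0.00164). Phlda3, an inhibitor of Akt, rose by 1.86 ± 0.27, and Tnfrsf10b, the death receptor for TRAIL, by 1.64 ± 0.42. Plk2, a stress-induced kinase, rose by 2.17 ± 0.41, although N750F array 4 at 7.42 was below untreated array 2 at 7.55. Ercc5, an endonuclease of nucleotide excision repair, and Ei24 rose by 1.24 ± 0.30 and 1.25 ± 0.21. The 19 members that did not pass included Pmaip1, the BH3-only protein Noxa, at 0.90 ± 0.35, Fas at 0.68 ± 0.22, Bbc3, the BH3-only protein Puma, at 0.15 ± 0.23 and Sesn1 at -0.30 ± 0.29. Cdkn1a, Bax and Gdf15 had no probe set with 1 gene symbol and were not tested. Run 1 alone gave 10 members higher, with a median of 0.73. Fits lacking untreated array 1 or untreated array 2 called 4 and 8 members higher, and the count was 10 to 13 without any 1 of the N750F arrays. Without both male arrays it was 2, with a median of 0.77.

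**Figure D2:**
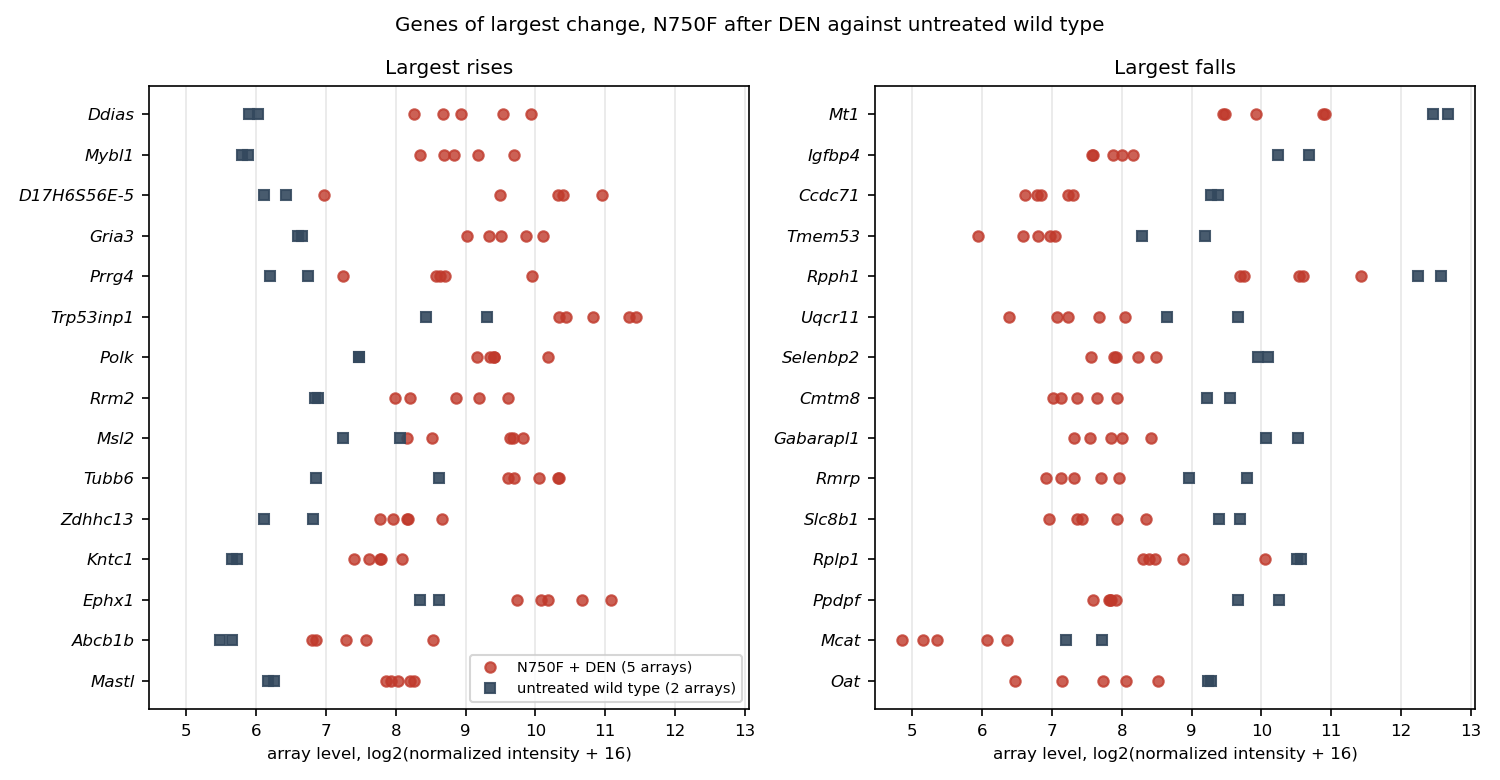
Level of the 15 genes with the largest rise and the 15 with the largest fall in each of the 5 N750F arrays (circles) and 2 untreated arrays (squares), on a log2 axis. The groups do not overlap for any of the 30 genes, which the choice of these genes required, and D17H6S56E-5 shows 1 N750F array at 6.97, far below the other 4.

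Genes with the largest rises were chosen by size of change among called genes with no overlap between the groups, and several were not members of any pathway list. Mybl1, the transcription factor A-MYB, had levels of 9.17, 8.69, 9.69, 8.34 and 8.83 in N750F livers, against 5.80 and 5.89 in untreated livers, a change of 3.38 ± 0.36 (adjusted p = 0.000647). Gria3, a subunit of AMPA glutamate receptors, had 9.51, 9.86, 10.1, 9.34 and 9.03 in N750F livers and 6.66 and 6.60 in untreated livers, a change of 3.30 ± 0.33 (adjusted p = 0.000629). For both genes the gap between the groups was wider than the range within either. D17H6S56E-5 had 10.3, 10.4, 6.97, 9.50 and 11.0 in N750F livers and 6.11 and 6.42 in untreated livers. Its change of 3.35 ± 0.84 (adjusted p = 0.0355) was carried by 4 of the 5 N750F arrays. Kntc1, a kinetochore protein of the spindle checkpoint, rose by 2.13 ± 0.52, and Mastl, the Greatwall kinase of mitotic entry, by 2.09 ± 0.45. Tubb6, a beta tubulin, rose by 2.17 ± 0.41, Msl2, a subunit of the MSL histone acetyltransferase complex, by 2.21 ± 0.35, and Zdhhc13, a palmitoyltransferase, by 2.13 ± 0.40. Abcb1b, a P-glycoprotein drug exporter, rose by 2.11 ± 0.41, and Prrg4, a transmembrane protein with a Gla domain, by 2.60 ± 0.46. The Tubb6 levels of the untreated arrays, 6.85 and 8.62, were far apart, and all 5 N750F arrays, at 9.61 to 10.3, lay above both.

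At least 5 members rose and 0 fell in the lists of DNA repair, nuclear transport and the interferon response. In DNA repair and checkpoints 7 of 34 rose (20.6%, against 3.87% of all genes tested), with a median of 0.38. Xrcc5, the Ku80 subunit of end joining, rose by 1.37 ± 0.23 (adjusted p = 0.00952), Brca2, of homologous recombination, by 1.64 ± 0.33, and Chek1, the checkpoint kinase of stalled replication, by 1.38 ± 0.32. Tipin and Timeless, partners at the replication fork, rose by 0.97 ± 0.25 and 1.22 ± 0.33. The number of these 34 genes higher was 0 without untreated array 1, 1 without untreated array 2 or N750F array 3, 3 without N750F array 2 and 4 without N750F array 5, and run 1 alone gave 1. It was 4 with an offset of 1 and 3 after median scaling or without further normalization. Of 36 nuclear transport genes 10 rose (27.8%), with a median of 0.69. Kpna4, an importin alpha, had levels of 10.1, 10.02, 10.2, 9.27 and 9.21 in N750F livers and 8.51 and 8.63 in untreated livers, a change of 1.61 ± 0.33 (adjusted p = 0.018). The arrays of run 2 were the lowest of the N750F group in this gene. Kpna3, another importin alpha, rose by 1.42 ± 0.27, with N750F array 5 at 8.91 below untreated array 2 at 9.15. Nup93 and Nup98, of the nuclear pore, rose by 1.34 and 1.00, Tnpo3, an importin of splicing factors, by 1.25 and Cse1l, the exportin of importin alpha, by 1.20. Of the nuclear transport genes 0 were called without untreated array 1, 3 without untreated array 2, and 1, 4 and 6 without N750F arrays 3, 2 and 5, and run 1 alone gave 1, with a median of 0.70. With an offset of 1, after median scaling or without further normalization 6 were called.

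Of 32 interferon response genes 5 rose (15.6%, against 3.87% of all genes tested) and 0 fell, with a median of 0.58. Psmb9, an immunoproteasome subunit, had levels of 7.80, 7.01, 7.03, 7.29 and 6.99 in N750F livers and 6.04 and 6.06 in untreated livers, a change of 1.14 ± 0.26 (adjusted p = 0.0267). Trim30a rose by 1.23 ± 0.29, Cmpk2, a mitochondrial nucleotide kinase, by 1.51 ± 0.37, Parp14 by 1.52 ± 0.41 and Mx2, a dynamin-like GTPase, by 1.08 ± 0.30. The mean level of the list was 8.23 in N750F array 1 and 7.44 to 7.88 in the other 4 N750F arrays, against 7.43 and 7.17 in untreated livers. Array 1, from the male mouse, stood highest. Without it 1 member rose and the median was 0.25. The count was 2 without N750F array 2, 1 without N750F array 3 and 0 without either untreated array, and the median was 0.27 without untreated array 2. It was 3 with an offset of 1 or after median scaling and 2 without further normalization.

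**Figure D3:**
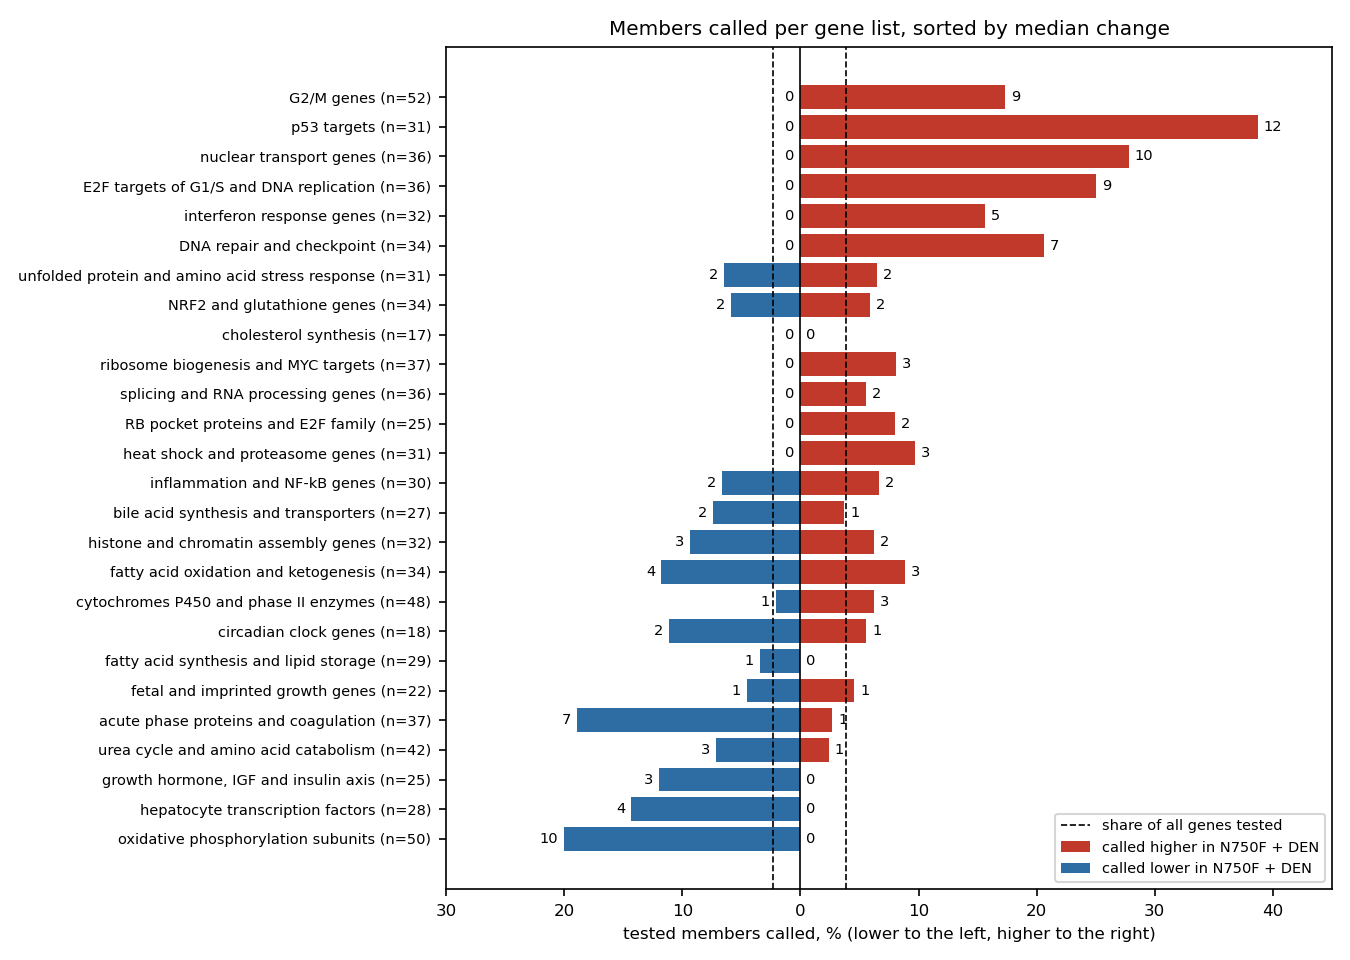
Share of the tested members of each of the 26 pathway lists called higher (right) or lower (left) in N750F livers after DEN, with the number called beside each bar and dashed lines at the shares of all genes tested, 3.87% and 2.34%. The p53 list has the largest share of members higher, 38.7%, and the respiratory chain list the largest share lower, 20.0%.

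The metallothionein genes Mt1 and Mt2 fell, and Mt1 had the largest fall of the genes chosen by size of change. Mt1, a zinc-binding protein of the stress and acute phase response, had levels of 9.48, 9.92, 9.44, 10.9 and 10.9 in N750F livers, against 12.5 and 12.7 in untreated livers, and fell by 2.77 on the log2 scale (SE 0.29, adjusted p = 0.000629). Mt2 had 10.07, 10.16, 9.76, 11.02 and 10.86 in N750F livers and 12.08 and 12.15 in untreated livers, and fell by 1.99 (SE 0.24, adjusted p = 0.00196). In both genes the N750F arrays of run 2 were the highest of the 5 and still below both untreated arrays. Mt3 and Mt4 stood at -0.45 and -0.50 and did not pass the test. Of 37 acute phase and coagulation genes 7 fell (18.9%), against 2.34% of all genes tested, and 1 rose, with a median of -0.22. Besides the metallothioneins, the members that fell were Mbl1, a mannose-binding lectin (change -1.31), F7, coagulation factor VII (-1.34), Hp, haptoglobin (-0.93), Saa4 (-0.98) and Hamp2, a hepcidin (-1.59). F11, coagulation factor XI, rose by 1.02 ± 0.24. Run 1 alone gave 4 members lower, and the number lower was 2 without untreated array 1 and 3 without untreated array 2 or N750F array 3. It was 4 after median scaling, without further normalization or levelled over gene span.

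Genes of the growth hormone and IGF axis had 3 of 25 members lower (12.0%), against 2.34% of all genes tested. In this list 0 were higher, and the median was -0.26. Igfbp4, an IGF-binding protein, had levels of 7.58, 7.87, 7.57, 8.16 and 8.01 in N750F livers, against 10.7 and 10.2 in untreated livers, and fell by 2.63 (SE 0.31, adjusted p = 0.00152). The N750F arrays spread over less than 1 log2 unit and lay far below both untreated arrays. Socs2 and Cish, feedback inhibitors that growth hormone induces through STAT5, fell, with changes of -1.93 ± 0.36 and -2.09 ± 0.37. Socs2 had 8.78, 9.81, 8.64, 10.5 and 10.3 in N750F livers and 11.4 and 11.1 in untreated livers, while in Cish N750F array 4 at 7.84 was above untreated array 2 at 7.77. In each fit that left out 1 array other than untreated array 1, 3 members were called lower. Without untreated array 1 this did not hold, and the changes were -2.40 for Igfbp4, -1.78 for Socs2 and -1.77 for Cish. Of 28 hepatocyte transcription factors 4 fell (14.3%) and 0 rose, and the median of -0.46 was the second lowest of the pathway lists. Nr1i3, the xenobiotic receptor CAR, had 7.67, 7.87, 8.17, 7.57 and 8.70 in N750F livers and 9.69 and 8.92 in untreated livers, and fell by 1.42 (SE 0.34, adjusted p = 0.0307). The others that fell were Creb3l3, a liver factor of lipid metabolism (change -0.99), Foxa2 (-1.1) and Onecut1, also called HNF6 (-1.21). The mean level of these 28 genes was 8.22 to 8.39 in N750F arrays, against 8.76 and 8.79 in untreated arrays, and did not overlap. The count was 0 without either untreated array and without N750F array 2 or N750F array 3, and run 1 alone gave 2. It was also 0 with an offset of 1 and without further normalization, and 1 after median scaling, with medians of -0.49, -0.38 and -0.36.

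Subunits of the respiratory chain and ATP synthase had the lowest median of the pathway lists, -0.52, with 10 of 50 members lower (20.0%) and 0 higher. Of all genes tested 2.34% were lower. Atp5o, a subunit of the ATP synthase stalk, had levels of 9.73, 10.3, 10.01, 9.86 and 10.04 in N750F livers, against 11.4 and 11.2 in untreated livers, and fell by 1.23 (SE 0.26, adjusted p = 0.0195). All 5 N750F arrays lay well below both untreated arrays. Ndufa1, of complex I, fell by 1.56 (SE 0.26, adjusted p = 0.00942), but its levels of 8.57, 8.42, 8.45, 10.05 and 9.85 in N750F livers overlapped the 10.3 and 9.93 of untreated livers through array 4. The other members that fell were Ndufa2, Ndufb10, Ndufc2, Ndufs3 and Ndufs6 of complex I, Sdhb of complex II, Uqcrc1 of complex III and Atp5h of ATP synthase. Ndufa10, Atp5b and Cycs stood at 0.77, 0.70 and 0.66 and did not pass the test. Uqcr11, of complex III and not in the list, was among the largest falls, at -2.31 ± 0.39, while the group means of another of its probe sets differed by -0.15. The mean level of the list was 9.46, 9.79, 9.74, 10.05 and 9.93 in N750F livers and 10.2 and 10.09 in untreated livers, with the N750F arrays of run 2 highest. Run 1 alone gave 3 members lower. Fits lacking untreated array 1 called 0 members lower, those lacking untreated array 2 or N750F array 3 called 2 each, and those lacking N750F array 1 or N750F array 2 called 3 and 5. After median scaling or without further normalization 2 members were lower, with medians of -0.40 and -0.41, and with an offset of 1 there were 6. Levels also moved with the length of genes: of 1700 genes spanning at most 3 kb of the genome, 0.529% were higher and 3.47% lower, and of 3894 spanning 30 to 100 kb, 6.68% were higher and 1.03% lower. When each array was levelled over gene span, 7 of the 50 subunits were lower, with a median of -0.49, and the part of gene length in the falls was not tested further.

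Other large falls were outside the lists. Gabarapl1, an autophagy protein of the ATG8 family, had levels of 7.54, 8.41, 7.84, 7.32 and 8.01 in N750F livers, against 10.5 and 10.1 in untreated livers, and fell by 2.26 (SE 0.33, adjusted p = 0.00676). Slc8b1, the mitochondrial sodium-calcium exchanger, and Selenbp2, a selenium-binding protein, fell, with changes of -2.22 ± 0.29 and -2.30 ± 0.32. The RNA components of RNase P and RNase MRP, Rpph1 and Rmrp, fell, with changes of -2.35 ± 0.43 and -2.24 ± 0.45. Mcat, which loads malonyl groups for mitochondrial fatty acid synthesis, and Rplp1, a ribosomal stalk protein, fell, with changes of -2.10 and -2.21. In Rplp1 N750F array 5 at 10.06 came near the untreated arrays at 10.6 and 10.5, while the other 4 lay at 8.30 to 8.88, and the group means of another Rplp1 probe set differed by -0.37. Tmem53, Ccdc71, Cmtm8 and Ppdpf also fell, with changes from -2.20 to -2.57. The groups did not overlap in any of these genes, as their choice required.

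Limma called 3.87% of all genes tested higher and 2.34% lower, and 3314 of 14953 passed an unadjusted p under 0.05. Of 12 genes of pericentral hepatocytes 2 fell (16.7%) and 1 rose (8.33%), and 7 passed an unadjusted p under 0.05, of which 6 were lower. Their median change was -0.62. Of 12 periportal genes 0 were called by limma and 4 passed an unadjusted p under 0.05, with 2 in each direction and a median of 0.04. Glul, the glutamine synthetase of pericentral hepatocytes, had levels of 8.83, 8.90, 8.45, 8.68 and 8.39 in N750F livers, against 10.2 and 10.04 in untreated livers, and fell by 1.47 (SE 0.27, adjusted p = 0.0136). Oat, ornithine aminotransferase and also pericentral, had 6.47, 8.06, 7.14, 8.52 and 7.72 in N750F livers and 9.28 and 9.23 in untreated livers, and fell by 2.03 (SE 0.40, adjusted p = 0.0175). Another pericentral gene, Aldh1a1, of retinal oxidation, rose by 1.08 ± 0.22. In fatty acid oxidation 3 of 34 rose (8.82%) and 4 fell (11.8%), with a median of -0.03. After median scaling 3 rose and 1 fell, with a median of 0.04, and without further normalization 2 rose and 0 fell, with a median of 0.03. Pdk4, the kinase that switches off pyruvate dehydrogenase, rose by 1.47 ± 0.27, and Acot1 and Acot2, acyl-CoA thioesterases, by 1.22 and 1.19. Acads, Acadm, Hadh and Decr2, enzymes of beta oxidation, fell, with changes of -1.16, -0.93, -0.93 and -1.15. Of 48 cytochromes P450 and phase II enzymes 3 rose (6.25%) and 1 fell (2.08%), against 3.87% and 2.34% of all genes tested. Their median of -0.03 turned to 0.07 after median scaling and to 0.06 without normalization. Cyp2e1, which activates DEN, had a change of 0.04 ± 0.24. Cholesterol synthesis had 0 of 17 called by limma, with 3 at an unadjusted p under 0.05. Bhmt, of homocysteine remethylation, rose by 1.31 ± 0.34 on the probe set used, and the group means of the other 2 probe sets differed by 1.29 and -0.17.

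Several further lists had shares of calls nearer those of all genes tested, 3.87% higher and 2.34% lower. In the NRF2 and glutathione list 2 of 34 rose and 2 fell, 5.88% each. Nqo1, a quinone reductase, rose by 1.51 ± 0.37 with overlap between the groups, Srxn1, sulfiredoxin, rose by 1.71 ± 0.37, and Osgin1 and Gstm2 fell, with changes of -1.33 and -1.79. In the inflammation list 2 of 30 rose and 2 fell, 6.67% each. Jun, a subunit of AP-1, rose by 1.79 ± 0.41 and Vcam1, an adhesion molecule, by 1.02, while Dusp1, a phosphatase of MAP kinases, and Nfkbia, the inhibitor of NF-kB, fell, with changes of -1.35 and -1.39. In the unfolded protein list 2 of 31 rose and 2 fell, 6.45% each. Hspa5, the chaperone BiP, rose by 0.79 ± 0.22 and Ero1b by 1.63 ± 0.34, while Atf4 and Atf5 fell, with changes of -1.09 and -2.06. The Atf5 levels of 8.16, 7.71, 7.98, 9.90 and 10.8 in N750F livers overlapped the 8.85 and 11.1 of untreated livers. Of 37 genes of ribosome biogenesis and MYC targets 3 rose (8.11%) and 0 fell. Rrn3, an initiation factor of RNA polymerase I, rose by 1.95 ± 0.21 (adjusted p = 0.000661), with levels of 7.77 to 8.57 in N750F livers and 6.54 and 6.51 in untreated livers. Of 31 heat shock and proteasome genes 3 rose (9.68%) and 0 fell, among them Psmd1, a proteasome subunit, by 1.89 ± 0.31. Of 32 histone and chromatin assembly genes 2 rose (6.25%) and 3 fell (9.38%). The histone genes H4c4, H4c14 and H2az2 fell, with changes of -1.46, -1.34 and -0.88, while Eed, a Polycomb subunit, and Hmgb3 rose by 1.13 and 1.00. Another probe set of Eed had group means that differed by -0.29.

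Markers of other liver cells gave few calls. Over all genes tested 3.87% were higher and 2.34% lower. Of 18 Kupffer cell markers 1 rose and 1 fell (5.56% each), with a median of -0.03 (0.03 after median scaling and 0.06 without normalization). Their mean level was 7.76 to 8.16 in N750F arrays, against 8.41 and 8.04 in untreated arrays. Timd4, a receptor of resident macrophages, rose by 1.24 ± 0.24, although N750F arrays 4 and 5 at 6.60 and 6.68 were below untreated array 1 at 6.79, and C1qc, a complement subunit of macrophages, fell by 1.60 (SE 0.35). Of 21 sinusoidal endothelial markers Mrc1 and Oit3 rose by 0.86 and 0.76 and Gpr182 fell by 1.82. Of 8 neutrophil markers S100a8 fell by 1.66, with 10 more too dim to test. Of 21 stellate cell and fibroblast markers Ecm1 fell by 1.48. Erythroid (12), cholangiocyte (8), lymphocyte (9) and skeletal muscle (6) markers had 0 calls by limma. At an unadjusted p under 0.05, 6, 1, 1 and 0 of them passed, against 3314 of 14953 genes tested. Of the 6 erythroid markers that passed it, 4 were higher and 2 lower. Mean levels of the erythroid list, which also held Mki67, a marker of cycling cells, were 7.45 to 7.57 in N750F arrays. Untreated arrays had 7.39 and 7.49.

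The series also held wild type livers after DEN on 2 arrays, 1 from each run and both from females, which stand between the groups in treatment and genotype. N750F after DEN against wild type after DEN called 169 genes higher (1.13%) and 43 lower (0.288%), and wild type after DEN against untreated wild type called 45 higher (0.301%) and 58 lower (0.388%). These comparisons share the N750F or the untreated arrays with the main one, and the change described so far equals the sum of the other two, so they are given side by side. For p53 targets the medians were 0.07 for N750F against wild type after DEN, with 1 of 31 higher, and 0.60 for DEN in wild type, with 7 higher. For E2F targets they were 1.07, with 13 of 36 higher, and -0.42, with 0 called. For G2/M genes they were 1.89, with 38 of 52 higher, and -1.03, with 4 lower. Ccng1 differed by 0.01 ± 0.19 between the genotypes after DEN and by 1.87 ± 0.23 between wild type with and without DEN. Rrm1 differed by 1.85 ± 0.34 (adjusted p = 0.0155) between the genotypes and by -0.13 ± 0.43 with DEN in wild type. For Mki67 these values were 2.61 ± 0.40 (adjusted p = 0.00904) and -1.57 ± 0.51 (adjusted p = 0.187), which sum to the 1.04 that did not pass against untreated livers. Igfbp4 and Mt1 differed by -0.16 ± 0.29 and -0.51 ± 0.27 between the genotypes and by -2.47 ± 0.37 and -2.26 ± 0.34 with DEN in wild type. Kupffer cell markers had medians of 0.89 between the genotypes and -0.87 with DEN in wild type, and their mean level was 7.30 and 7.25 in the wild type DEN arrays.

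**Figure D4:**
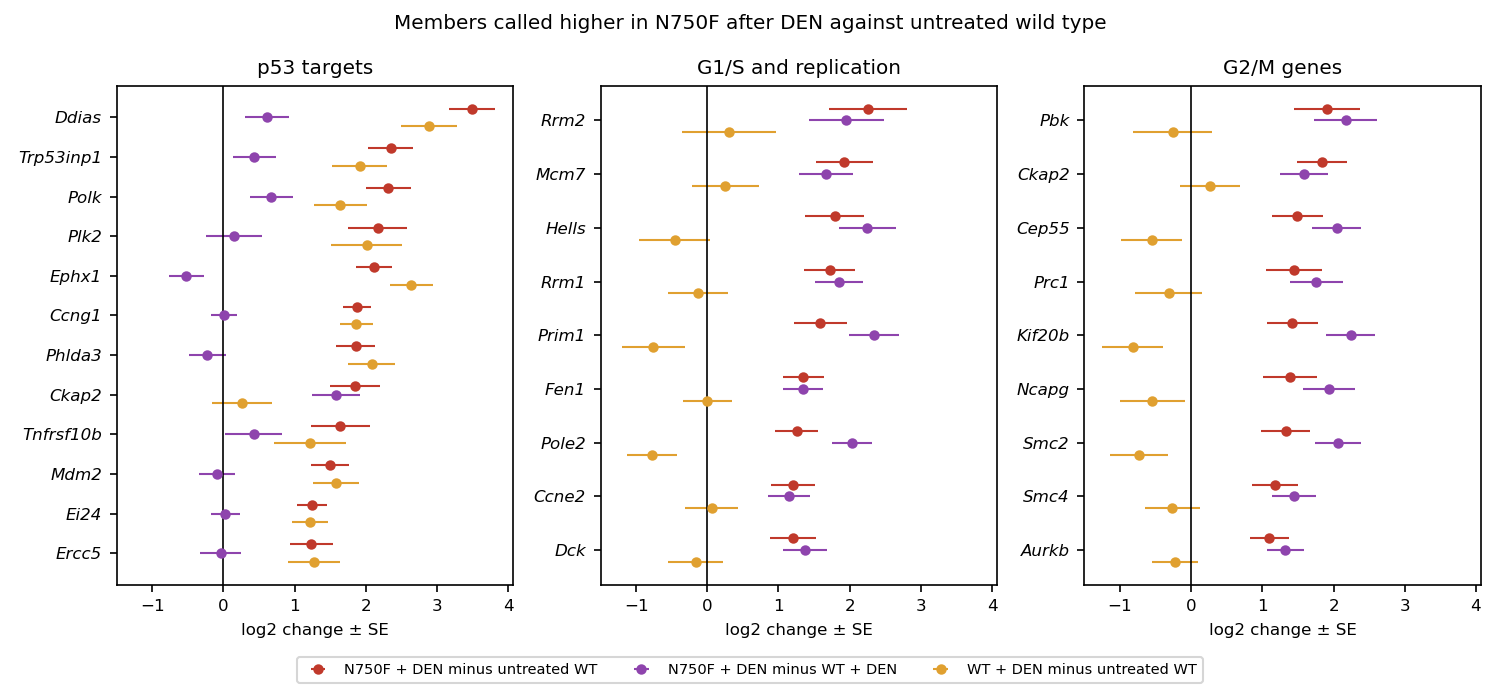
Log2 change ± SE of the p53 targets, E2F targets and G2/M genes called higher in N750F after DEN against untreated wild type (red), beside N750F against wild type after DEN (purple) and DEN in wild type (orange). The red changes are the sum of the purple and orange ones. For most p53 targets the orange change is near the red one, and for most E2F and G2/M genes the purple change is at or above it.

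Single genes differed in how they divided between the 2 other comparisons. Onecut1 differed by -2.01 ± 0.29 (adjusted p = 0.00688) against wild type after DEN and stood at 0.80 ± 0.37 with DEN in wild type. Chek1 was higher by 2.13 ± 0.30 (adjusted p = 0.00525) against wild type after DEN, with -0.75 ± 0.38 for DEN in wild type. Pdk4 was higher by 1.43 ± 0.26 (adjusted p = 0.0155) against wild type after DEN, with 0.04 ± 0.33 for DEN in wild type. Usp2, a clock-controlled deubiquitinase, rose by 0.99 ± 0.23 against untreated livers, with -1.07 ± 0.22 (adjusted p = 0.0318) against wild type after DEN and 2.06 ± 0.28 (adjusted p = 0.00649) for DEN in wild type. Foxa2 was at 0.59 ± 0.26 against wild type after DEN, which did not pass, and at -1.69 ± 0.33 (adjusted p = 0.0377) for DEN in wild type. Mastl, with 2.66 ± 0.43 (adjusted p = 0.0093) against wild type after DEN, had levels of 6.40 and 4.28 in the wild type DEN arrays, which were far apart.

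**Figure D5:**
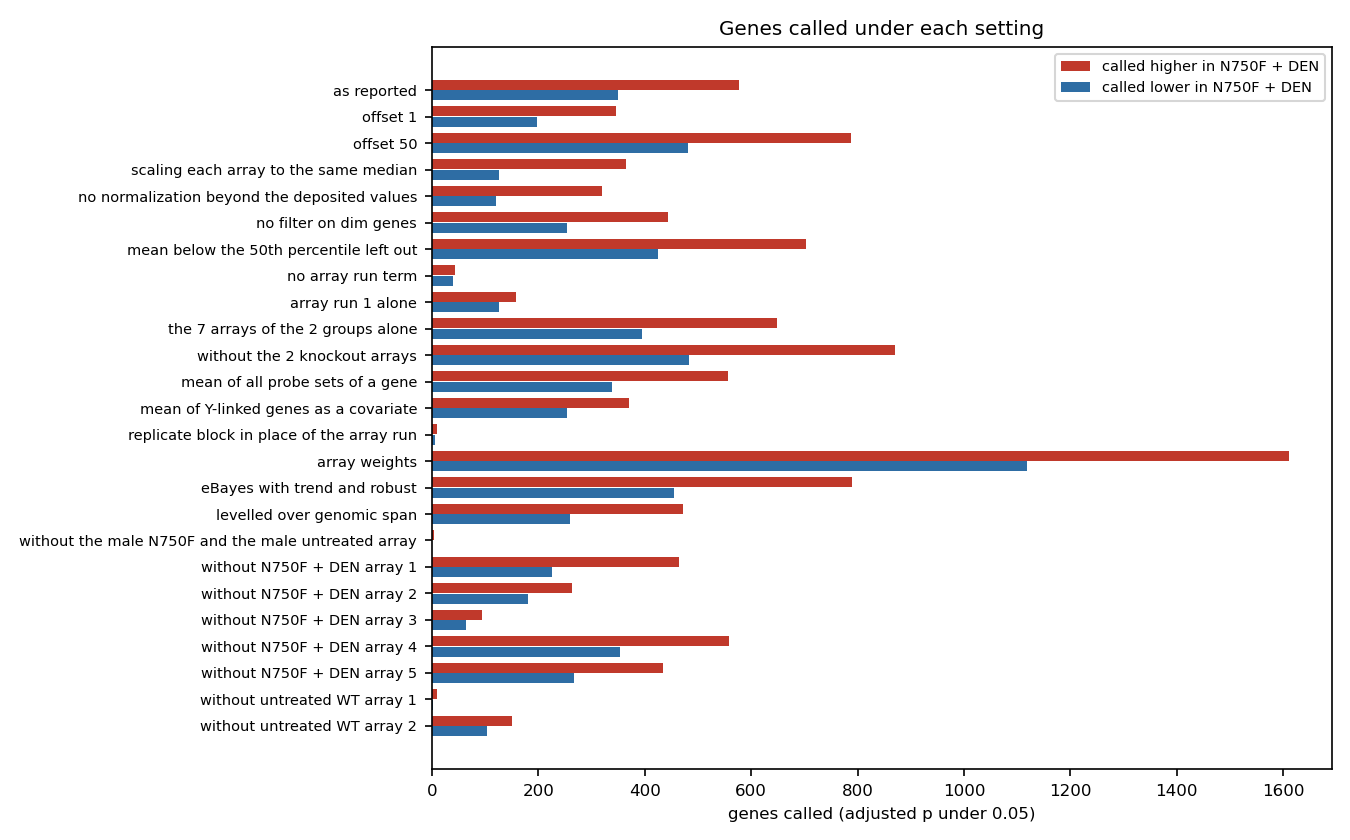
Number of genes called higher (red) and lower (blue) at an adjusted p under 0.05 with all arrays and under each other setting, including fits that leave out 1 array. The counts run from 5 and 1 without both male arrays to 1611 and 1119 with array weights.

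Of 117 genes named from these comparisons by rule and called, 4 were called under each of the 24 other settings tried: Ddias, Gria3, Ephx1 and Mt1. Ccng1, Mybl1, Mt2 and Rrn3 were called in 23 of them. Hsp90aa1, Hspa5 and Sf3b3 were called in 7 and Oit3 in 5. No called gene changed sign under any of these settings.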

How the data were processed

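RNA of frozen mouse liver was amplified, labelled with biotin and read on Affymetrix arrays, as the labels' protocols state. For each of 35556 probe sets and 13 arrays the authors deposited 1 linear intensity. RMA and Affymetrix Expression Console 1.1 are named, without their roles, in the submitters' processing notes, and the background correction, scaling and genome build are not given in the sources used here. Probe sets with 1 symbol in GEO's annotation (21789, against 1621 with several and 12146 not listed) were named, and 21698 symbols were updated through Entrez IDs with RefSeq's GRCm38.p6 table. The probe set with the highest mean stood for each of 19938 genes, and after removal of the genes dimmer on average than the 25th percentile 14953 were tested.

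Intensities were quantile-normalized over the 13 arrays and turned into log2(value + 16), an offset that makes changes of dim genes look smaller. A single limma 3.58.1 model (lmFit and eBayes, R 4.3.3) held the 5 groups of the series and a term for array run, with 7 residual degrees of freedom. P-values were two-sided and adjusted by Benjamini-Hochberg over all genes tested, and every adjusted p printed is from this model. The script was tested on simulated data. Precision is limited by how few arrays there are, and no pair of them held identical values.

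Groups were taken from the labels. The comparison, the gene lists and the rule for named genes were chosen with earlier results of these data known. Of 1249 list entries 108 had no probe set with 1 symbol, 138 were too dim and 21 were matched through an older symbol. Named genes were Rb1 and up to 15 per direction with the largest change among called genes. The genes of largest change had no overlap between the groups and a higher group mean of at least 7. Predicted loci, snoRNAs, snRNAs, miRNAs, rRNAs, tRNAs, Xist and Y-linked genes were left out of them. Other X-linked genes and the RNAs of RNase P and RNase MRP were kept. Also named were up to 4 called members per list with the smallest p, or the member with the smallest p where none was called. Genes named beyond this rule, such as Mki67, Cdk1 and Cyp2e1, were chosen after their values were seen. Lists are described by counts and medians, with no set test. Alternatives changed the offset, the normalization, the filter, the arrays and terms in the model, the probe sets used and the variance model.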

Additional observations from a re-analysis of the deposited data

Results flagged for a closer look

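In 125 named genes and the mean levels of 37 lists, the 5 N750F arrays were examined for an array standing apart by Dixon's criterion, which chance meets in about 1 of 20 groups. In 3 genes and 2 lists 1 array stood apart. Polk was at 10.2 in N750F array 3, with the nearest of the other arrays at 9.41 and the lowest at 9.16. Srxn1 was at 9.84 in N750F array 3, with the others at 8.24 to 8.42. Hnf4a was at 7.21 in N750F array 5, with the others at 7.69 to 7.88. The growth hormone and IGF list had a mean level of 9.11 in N750F array 2 and 8.67 to 8.77 in the others, against 9.23 in both untreated arrays. The inflammation list had a mean level of 7.18 in N750F array 4 and 7.48 to 7.56 in the others. The untreated group, with 2 arrays, was not examined in this way.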

How the results depend on the processing

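With all arrays 578 genes were higher and 350 lower. The counts were 347 and 197 with an offset of 1 and 788 and 482 with an offset of 50. They were 365 and 127 after median scaling and 320 and 120 without further normalization. Under these last 2 settings the calls leaned more towards higher genes than the 578 against 350 of the reported fit. Counts were 43 and 39 without the array run term, and 159 and 127 in run 1 alone, which has fewer arrays. Without that term 7 p53 targets were called, and 1 member in each of the E2F, G2/M and respiratory chain lists. In the DNA repair, interferon, nuclear transport and hepatocyte transcription factor lists 0 were called without it. They were 871 and 484 without the 2 knockout arrays, and 371 and 254 with the mean of Y-linked genes as a covariate. Array weights gave 1611 and 1119. With a replicate block in place of the array run, 9 and 7 genes were called. The replicate numbers do not pair the mice: only numbers 1 and 2 occur in both groups, the labels tie no number to a litter, and deviations of same-numbered arrays correlated at -0.04 and 0.13. Leaving out 1 array at a time gave 10 to 559 genes higher and 3 to 353 lower. Untreated array 1 gave the lowest counts, 10 and 3, followed by N750F array 3 (95 and 65), untreated array 2 (151 and 103) and N750F array 2 (263 and 180), and without N750F array 1 the number lower was 225. With an untreated array left out, the single remaining one was assumed to vary like the other groups. Of 2 alternatives chosen after seeing the data, levelling over gene span gave 472 and 260, with 688 of 926 called genes kept, and leaving out both male arrays gave 5 and 1. The remaining settings gave 443 to 789 higher and 255 to 456 lower. The cause of these differences was not tested. No called gene and no named gene that was called changed sign under any setting.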

Other observations

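Some groups of genes outside the lists were looked at after their values were seen. Of 66 cytosolic ribosomal protein genes 1 was higher in N750F livers after DEN than in untreated wild type livers and 7 were lower, with a median change of -0.20. Of 76 mitochondrial ribosomal protein genes 1 was higher and 7 lower, with a median of -0.10. Of 236 genes of snoRNA, snRNA, miRNA and other short RNA biotypes 3 were higher and 14 lower, with a median of -0.20. Over all genes tested 578 were higher (3.87%) and 350 lower (2.34%), with a median of -0.06.

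Changes differed by the genomic span of the gene, known for 99.6% of genes tested. The median change was -0.18 for genes spanning at most 3 kb, -0.14 for 3 to 10 kb, -0.05 for 10 to 30 kb, 0.09 for 30 to 100 kb and 0.00 above 100 kb. Genes of at most 3 kb deviated from the mean of all 13 arrays by a median of 0.02, -0.11, -0.13, -0.04 and 0.00 in the 5 N750F arrays and by 0.09 and 0.11 in the 2 untreated arrays. For genes of 30 to 100 kb the medians were 0.09, 0.11 and 0.10 in the N750F arrays of run 1. They were -0.07 and -0.02 in those of run 2, and -0.03 and 0.01 in the untreated arrays. The wild type arrays after DEN were at 0.09 in run 1 and -0.18 in run 2. The part of RNA quality or of the amplification in this pattern was not tested.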
